A study of Homo sapiens with 14 samples.

Results

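ETS proteins are transcription factors that share one DNA-binding domain, and 10 genes of the family were followed here through total and polysome-bound mRNA of breast cancer cells. ETS1, ETS2, FLI1, ELK1, ELK3, ELF1, ELF2, ETV4, ETV5 and GABPA were taken by name from the 58434 gene symbols of the count table, where each of the 10 was found. The human family was listed as 28 genes, and of the other 18 those that passed the filter are named. MDA-MB-231 is an established cell line from a triple-negative breast cancer of mesenchymal type. The cells carried a doxycycline-inducible hairpin, either non-silencing (shNSi) or against the translation initiation factor DAP5, encoded by EIF4G2 (shDAP5), and each of the 14 libraries came from cells given doxycycline at 1 µg/ml for 6 days. The study asked which mRNAs need DAP5 to reach polysomes, so total mRNA, light polysomes (few ribosomes per mRNA) and heavy polysomes (many ribosomes) were sequenced from 2 cultures per hairpin, and the shNSi cultures also gave a moderate pool.

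The ETS domain folds into a winged helix-turn-helix whose recognition helix enters the major groove of DNA at a core of guanine-guanine-adenine. Members differ in their partners and in the sequence outside this domain: several are end points of the RAS and MAP kinase pathway, some act with serum response factor, and some repress. In invasive breast cancer cells ETS1 and the PEA3 group, to which ETV4 and ETV5 belong, are best known as activators of genes for matrix-degrading proteases.

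The stretch that reads the core is shown because it is what the family has in common. Below are the 42 coding bases of the recognition helix from the GENCODE v29 transcripts, 5′ to 3′, with capitals at bases that differ from ETS1.
ETS1: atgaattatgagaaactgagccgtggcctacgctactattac
ETS2: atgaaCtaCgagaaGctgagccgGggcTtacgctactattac
FLI1: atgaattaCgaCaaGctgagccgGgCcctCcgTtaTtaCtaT
ELK1: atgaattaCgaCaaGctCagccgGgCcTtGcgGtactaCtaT
ELK3: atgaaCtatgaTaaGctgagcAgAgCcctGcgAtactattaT
ELF1: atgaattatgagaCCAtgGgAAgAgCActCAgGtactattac
ELF2: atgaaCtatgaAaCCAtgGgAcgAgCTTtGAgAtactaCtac
ETV4: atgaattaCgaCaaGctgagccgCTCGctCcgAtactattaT
ETV5: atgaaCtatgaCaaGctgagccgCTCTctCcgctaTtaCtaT
GABPA: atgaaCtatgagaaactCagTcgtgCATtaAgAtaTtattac
ETS2 differs from ETS1 at 5 of these bases and ELF2 at 15, the fewest and the most among the other 9, so that 88.1% and 64.3% of the bases are identical. ELF1 and ELF2 share the changed run in the first part of the helix.

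Library depth was alike, from 25899838 to 30795910 counts per library. The scaling factors for library composition (TMM) ran from 0.74 in heavy polysomes of shNSi culture 2 to 1.191 in shDAP5 light polysomes. Raw counts of different libraries are therefore not on the same scale. The libraries labelled shDAP5 carried less EIF4G2 mRNA. In total mRNA EIF4G2 had 41918 and 38185 counts in the shNSi cultures and 15008 and 22127 in the shDAP5 cultures. In light polysomes it had 46054 and 45202 counts in shNSi and 18160 and 20946 in shDAP5, and in heavy polysomes 32051 and 29416 against 20256 and 18068. The lower counts were those of shDAP5 in each of these fractions, without overlap. The log2 change was -1.11 ± 0.18 (SE) in total mRNA, with an adjusted p of 0.0172 (edgeR quasi-likelihood test, Benjamini-Hochberg over all genes, threshold 0.05, n = 2 cultures against 2), and -1.33 ± 0.32 in light and -0.86 ± 0.38 in heavy polysomes, with adjusted p-values of 0.43 and 0.0691. Without shDAP5 culture 1 the total mRNA value was -0.90 and its adjusted p 0.68.

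Markers of the cell line were counted first. VIM, CD44, AXL, CAV1 and EGFR, genes of mesenchymal, basal-like breast cancer cells, each passed 1 CPM (counts scaled to library size) on average, and PGR, the progesterone receptor gene, had no count in any of the 14 libraries. Of 6 genes low in such cells 3 passed 1 CPM, ERBB2 with the highest mean, 57.9 CPM not scaled for length. Of the 5 line markers VIM, CD44 and EGFR were themselves called lower in shDAP5 heavy polysomes, against 16.7% of 14270 genes, at -1.35, -1.94 and -1.84 with adjusted p-values of 0.00559, 3.22e-05 and 1.57e-05, and none of these calls held without shDAP5 culture 2, at 0.121, 0.0777 and 0.0993, nor that of VIM without shNSi culture 2, at 0.0767. VIM passed in 7 of 11 other settings, with values from -1.53 to -0.64 and adjusted p-values up to 0.62. AXL had -0.89 and CAV1 0.63, with adjusted p-values of 0.0573 and 0.18, and EGFR is a name the study picked from these libraries. FLI1 and ETS1 are also genes of endothelial and blood cells, so markers of both were counted. The 6 blood markers summed to at most 0.361 CPM in any library, with HBB and GATA1 at 0. The 5 endothelial markers matched of 6 summed to between 0.782 and 6.03 CPM, KDR with the highest mean, 1.55 CPM, and CLDN5 was at 0.

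Per kilobase of annotated exon, the scale on which levels of the ETS genes are set side by side, shNSi total mRNA held most ETS1, at 48.3 ± 18.9 CPM per kilobase (mean ± SD, n = 2), and ELK1 at 40.6 ± 0.685. These 2 genes did not differ beyond the spread of the ETS1 cultures. Next came ELK3 at 23.9 ± 3.07 and ETV4 at 21.5 ± 1.21, again within their spread. ETS2 at 14.5 ± 0.587 and ETV5 at 14.3 ± 1.94 could not be ranked, and ELF1 followed at 7.16 ± 1.56. ELF2 at 2.53 ± 0.108 and GABPA at 2.17 ± 0.0172 were low, and FLI1 at 0.237 ± 0.266 was lowest. The range from ETS1 to FLI1 is therefore wide, and statements on FLI1 rest on few counts.

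**Figure D1:**
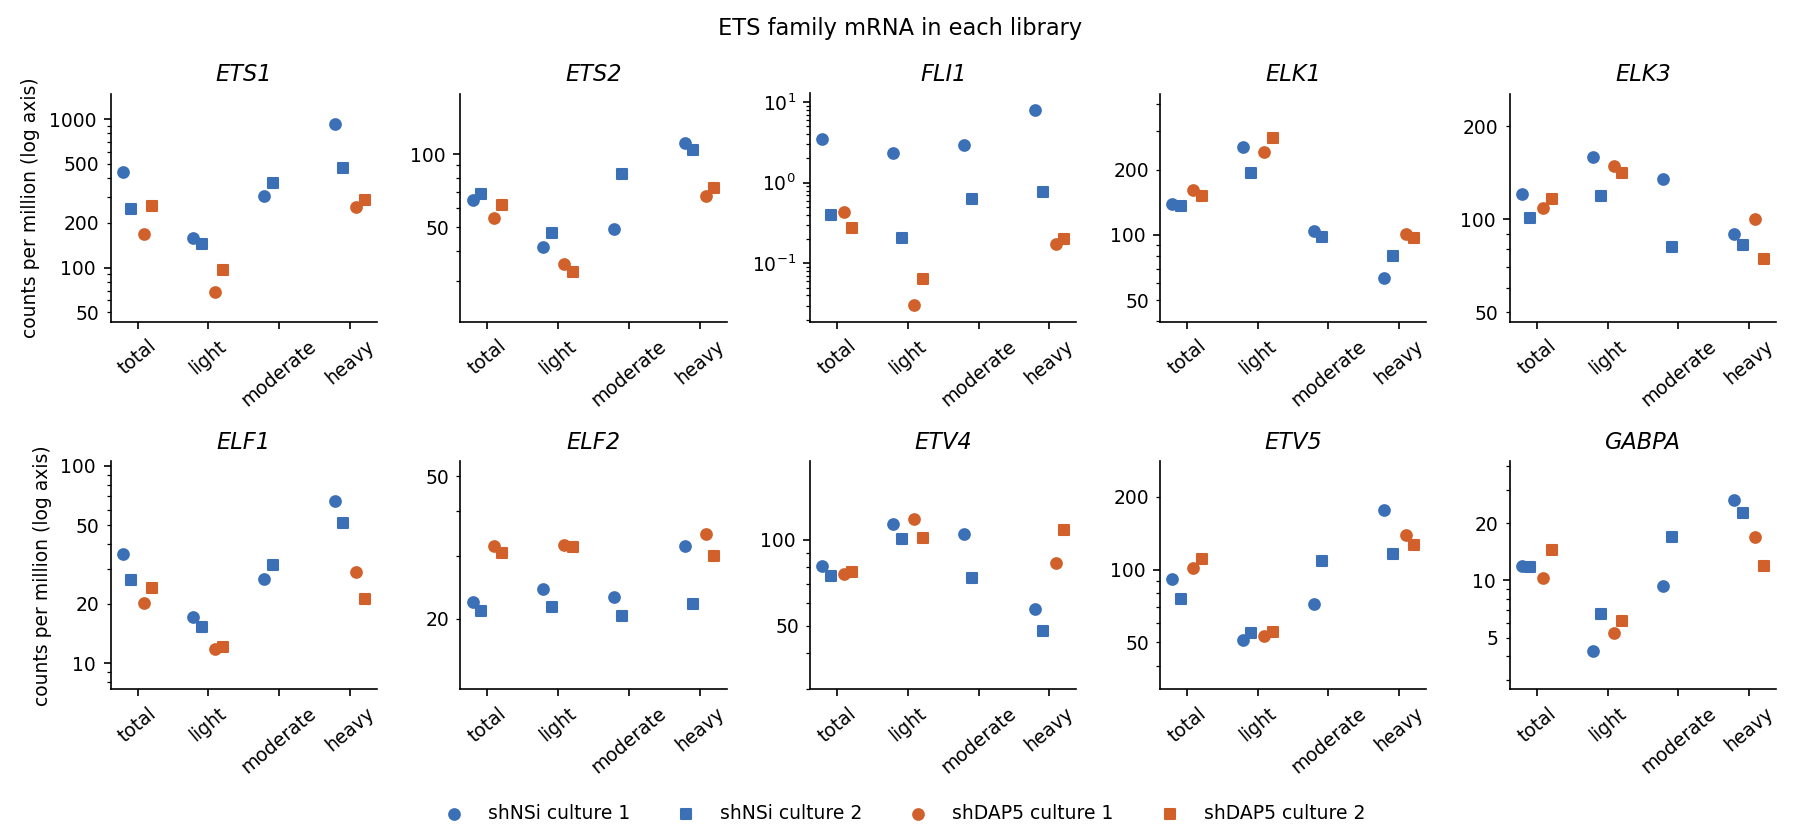
Each panel plots 1 ETS family gene in the 14 libraries as TMM-normalized CPM on a log axis, by fraction, with shNSi in blue, shDAP5 in orange, circles for culture 1 and squares for culture 2. ETS1, ETS2, ELF1, ETV5 and GABPA rise from light to heavy in both hairpins, ELK1 falls, and FLI1 stands high in shNSi culture 1.

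ETS1, an activator that MAP kinase phosphorylation switches on, lies on chromosome 11 (128458761 to 128587558, minus strand, GRCh38). Its counts in shNSi cultures 1 and 2 were 12814 and 6820 in total mRNA, 4761 and 4158 in light, 8666 and 10003 in moderate and 21482 and 10470 in heavy polysomes. In the shDAP5 cultures they were 4690 and 7610 in total mRNA, 2289 and 3026 in light and 7365 and 7130 in heavy polysomes. Both shDAP5 cultures were below both shNSi cultures in light and heavy polysomes, whereas in total mRNA shDAP5 culture 2 lay above shNSi culture 2. The shNSi cultures also differed between themselves in total mRNA and heavy polysomes, culture 1 being the higher.

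ETS2, the closest relative of ETS1 and answering to the same kinase signal, lies on chromosome 21 (38805307 to 38824955, plus strand). It had 1884 and 1877 counts in shNSi total mRNA, 1249 and 1374 in light, 1413 and 2235 in moderate and 2572 and 2311 in heavy polysomes. The shDAP5 cultures had 1511 and 1815 in total mRNA, 1172 and 1028 in light and 1931 and 1825 in heavy polysomes. Its shDAP5 values were below both shNSi values in each shared fraction, by little in total mRNA.

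FLI1, an activator of blood and endothelial genes and the fusion partner of EWSR1 in Ewing sarcoma, is the next ETS gene on chromosome 11 (128686535 to 128813267, plus strand). In shNSi cultures 1 and 2 it had 101 and 11 counts in total mRNA, 71 and 6 in light, 84 and 17 in moderate and 185 and 17 in heavy polysomes. In shDAP5 it had 12 and 8 counts in total mRNA, 1 and 2 in light and 5 and 5 in heavy polysomes. shNSi culture 1 stood far above the other cultures in every fraction, and in total mRNA shNSi culture 2 overlapped with shDAP5. The summed endothelial markers, mostly KDR, were 2.68 and 2.56 CPM in total mRNA, 1.16 and 1.07 in light, 1.32 and 1.78 in moderate and 3.33 and 6.03 in heavy polysomes of shNSi cultures 1 and 2, and between 0.782 and 1.42 in the 6 shDAP5 libraries. VWF, at few counts, was the higher in shNSi culture 1 like FLI1, with 12 and 5 in total mRNA and 17 and 11 in heavy polysomes. With 4 and 5 counts in shDAP5 heavy polysomes, VWF passed the filter there mainly through shNSi, so its call is no support for a change. Of all genes 16.7% were called lower in that comparison. In shDAP5 heavy polysomes KDR and VWF were called lower, at -2.11 and -1.78 with adjusted p-values of 0.000387 and 0.0437, and KDR had 0.113 without shDAP5 culture 2 and 0.0639 without shNSi culture 2, while VWF lost its call whichever culture was left out, at 0.135 to 0.312.

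ELK1, a ternary complex factor that binds beside serum response factor on early response genes such as FOS, lies on chromosome X (47635521 to 47650604, minus strand). It had 4059 and 3729 counts in shNSi total mRNA, 7639 and 5587 in light, 2993 and 2636 in moderate and 1472 and 1788 in heavy polysomes. In shDAP5 it had 4484 and 4449 in total mRNA, 7996 and 8875 in light and 2896 and 2432 in heavy polysomes. Light polysomes were its richest fraction in each of the 4 cultures, and its shDAP5 heavy libraries both exceeded the shNSi ones.

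ELK3, a ternary complex factor that represses until phosphorylated, lies on chromosome 12 (96194382 to 96269835, plus strand). It had 3527 and 2767 counts in shNSi total mRNA, 4819 and 3452 in light, 3886 and 2192 in moderate and 2070 and 1844 in heavy polysomes. The shDAP5 counts were 3023 and 3442 in total mRNA, 4951 and 4477 in light and 2884 and 1873 in heavy polysomes. It was richest in light polysomes like ELK1, and the hairpins overlapped in total mRNA and in light and heavy polysomes.

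ELF1, an activator of blood and epithelial genes, lies on chromosome 13 (40932028 to 41061440, minus strand). It had 1042 and 718 counts in shNSi total mRNA, 520 and 442 in light, 772 and 852 in moderate and 1531 and 1147 in heavy polysomes. In shDAP5 it had 557 and 706 in total mRNA, 392 and 382 in light and 826 and 529 in heavy polysomes. Both shDAP5 cultures were below both shNSi cultures in each shared fraction, with the widest gap in heavy polysomes.

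ELF2, a relative of ELF1 with activating and repressing isoforms, lies on chromosome 4 (139028112 to 139177218, minus strand). Its counts were 648 and 574 in shNSi total mRNA, 732 and 623 in light, 662 and 548 in moderate and 738 and 488 in heavy polysomes. In shDAP5 they were 887 and 901 in total mRNA, 1071 and 1007 in light and 988 and 751 in heavy polysomes. ELF2 was flat along the gradient, and its shDAP5 counts were the higher in each shared fraction, although in heavy polysomes the hairpins overlapped once normalized, at 31.9 and 21.95 CPM in shNSi and 34.51 and 29.89 CPM in shDAP5. A processed pseudogene on the same strand within ELF2, PPP1R14BP3, drew 9437 counts over the 14 libraries against 10618 for ELF2, so reads of the pair may have been split.

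ETV4, a PEA3 group activator of protease genes, lies on chromosome 17 (43527844 to 43579620, minus strand). It had 2346 and 2039 counts in shNSi total mRNA, 3442 and 2907 in light, 3006 and 1986 in moderate and 1319 and 1062 in heavy polysomes. In shDAP5 it had 2112 and 2282 in total mRNA, 3931 and 3203 in light and 2383 and 2730 in heavy polysomes. The hairpins overlapped in total mRNA and separated in heavy polysomes, where both shDAP5 libraries were the higher.

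ETV5, a PEA3 group member induced by fibroblast growth factor signaling, lies on chromosome 3 (186046308 to 186110318, minus strand). It had 2648 and 2057 counts in shNSi total mRNA, 1537 and 1584 in light, 2063 and 2917 in moderate and 4077 and 2574 in heavy polysomes. In shDAP5 it had 2820 and 3251 in total mRNA, 1759 and 1742 in light and 3969 and 3181 in heavy polysomes. Unlike ETV4 it was richest in heavy polysomes once normalized, by little in culture 2 of each hairpin, and there the hairpins overlapped.

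GABPA, the DNA-binding subunit of nuclear respiratory factor 2, which drives genes of the respiratory chain, lies on chromosome 21 (25734570 to 25772460, plus strand). It had 345 and 321 counts in shNSi total mRNA, 129 and 193 in light, 270 and 455 in moderate and 614 and 505 in heavy polysomes. In shDAP5 it had 287 and 429 in total mRNA, 176 and 193 in light and 482 and 301 in heavy polysomes. Heavy polysomes held most of it in shNSi, and its shDAP5 heavy libraries were both lower, the second being below the total library of its own culture.

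The first comparison asked where ETS mRNAs sit in the gradient of control cells. GABPA, ETS1, ELF1, FLI1, ETV5 and ETS2 were richer in heavy than in light polysomes, and ELK1, ETV4 and ELK3 were richer in light. These were 9 of 10 members past the threshold, against 64.4% of the 16051 genes tested, with 6 higher against 31.7% of genes and 3 lower against 32.8%. The members' median was 1.33 on the log2 scale and that of all genes -0.15. At the heavy end GABPA had a log2 ratio of 2.18 ± 0.31 (SE), ETS1 2.13 ± 0.37 and ELF1 1.81 ± 0.29. At the light end ELK1 had -1.67 ± 0.33, ETV4 -1.08 ± 0.30 and ELK3 -0.72 ± 0.31. The ELK3 call, at an adjusted p of 0.0342, was lost without shNSi culture 1 (0.189), shNSi culture 2 (0.0714) or shDAP5 culture 1 (0.0557) and without the filter (0.165), passing in 5 of 10 other settings, and that of FLI1 was lost without shNSi culture 1 (0.124). ELF2 lay between them at 0.17 ± 0.29, with an adjusted p of 0.61, and without TMM, a scaling for library composition, it turned to -0.27, against a median of all genes of -0.60 in that scaling. The signs of the 9 called ratios held in both cultures and under each scaling tried.

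The moderate pool of shNSi took an intermediate place for most members. From light to moderate the fitted log2 step was 1.17 for GABPA and 1.10 for ETS1, and from moderate to heavy 1.01 and 1.03. ELK1 fell mainly in the first step, by -1.22, and less in the second, by -0.45. ETV4 did the reverse, with -0.36 and then -0.72. These steps are given as levels of the same fit and were not tested.

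Paralogs took like places in some pairs and different places in others. ETS1 and ETS2, at 2.13 and 1.24, were both on the heavy side. ELK1 and ELK3, at -1.67 and -0.72, were both on the light side. ETV4 and ETV5 lay on opposite sides, at -1.08 and 1.42, and so did ETS1 and ELK1, whose coding lengths, 1326 and 1287 nt, are nearly equal. Across 12656 genes longer coding sequences went with heavier polysomes (Spearman's rho 0.64, a description over genes, which are not independent replicates). Over the 10 members, which span 1224 nt in ELK3 to 1860 nt in ELF1, the rho was 0.19. The 3352 genes of 1200 to 1900 nt had a median of 0.49, with quartiles at -0.38 and 1.45, so GABPA, ETS1, ELF1 and FLI1 lay above and ELK1, ETV4 and ELK3 below the middle part of genes of their length. With offsets for coding length the count of genes called was 6802. The changes between hairpins that involve heavy polysomes followed length the other way. Their rho over genes was -0.65 in heavy polysomes, -0.71 in heavy translation efficiency and -0.70 in the heavy to light ratio. It was -0.11 in total mRNA, 0.13 in light polysomes and 0.3 in light translation efficiency.

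**Figure D2:**
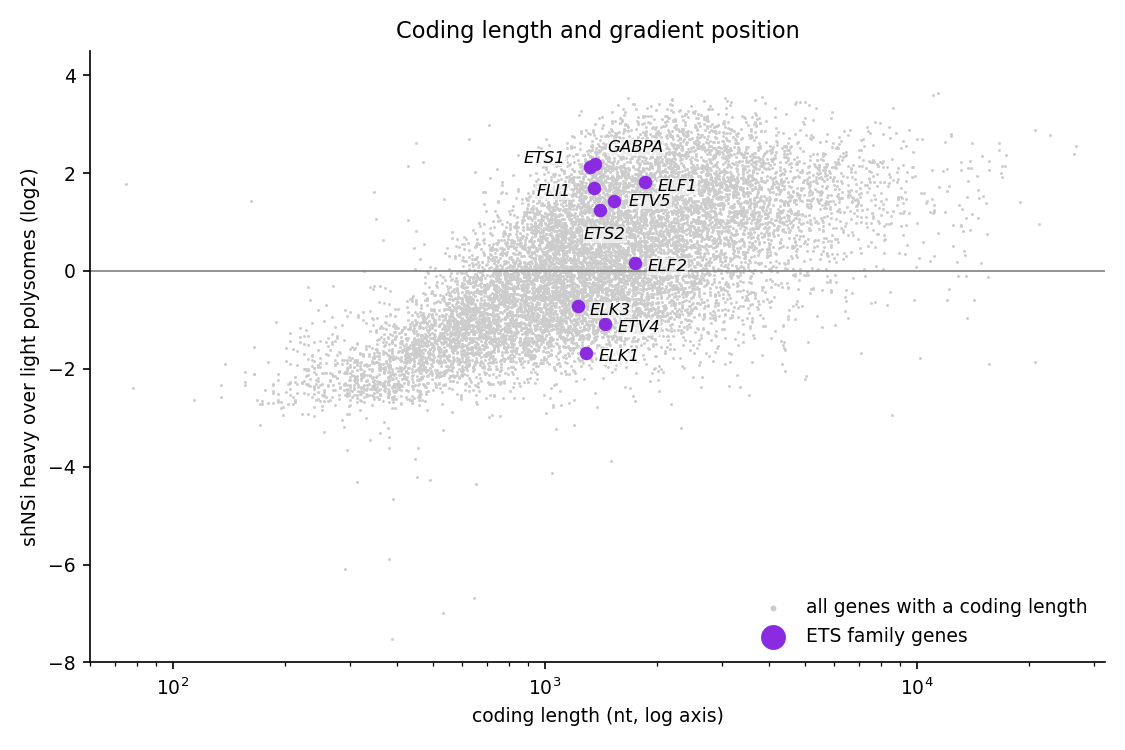
Heavy over light polysomes in shNSi (log2) against coding length (nt, log axis), with 1 grey point for each of 12656 genes and the 10 ETS genes in purple. The ETS genes form a near-vertical column from ELK1 at -1.67 to GABPA at 2.18 within a narrow span of lengths.

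The annotated 5′ leaders hold 0 ATG triplets in ETS1, 4 in FLI1, 3 in ELF1 and ELF2, 1 in ETV5 and 2 in each of ETS2, ELK1, ELK3, ETV4 and GABPA, against a median of 1 over 19488 genes. ETS1 and FLI1, with the fewest and the most, were both on the heavy side of the gradient, FLI1 on few counts. A link between these triplets and gradient position was not tested.

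The same comparison was made in shDAP5 cells, whose light libraries were titled light but carry the code that marks the shNSi moderate pool. ETS1, at 1.64 ± 0.37, GABPA at 1.23 ± 0.30, ETV5 at 1.2 ± 0.30, ETS2 at 0.96 ± 0.29 and ELF1 at 0.96 ± 0.29 were higher in heavy polysomes, and ELK1 at -1.48 ± 0.33 and ELK3 at -0.84 ± 0.31 were lower. That is 7 of 10 members against 44.1% of 16051 genes, 5 higher against 22% and 2 lower against 22.1%, with a median of 0.96 beside -0.03 for all genes. FLI1 (adjusted p 0.0882), whose 1 and 2 light counts are too few for a fold, ETV4 at -0.29 ± 0.30 and ELF2 at -0.09 ± 0.28 did not pass. With coding length offsets ETV4 passed with an adjusted p of 0.0273, as 1 of 8 members called against 41.8% of genes. That was its only pass in 10 other settings, over which its value ran from -0.66 to 0.03. Without shDAP5 culture 1 the count of members fell to 2, ETS1 and ELK1, against 20.3% of genes, and without culture 2, against 19.5%, ETS2 and ELK3 were lost, with adjusted p-values of 0.148 and 0.323.

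**Figure D3:**
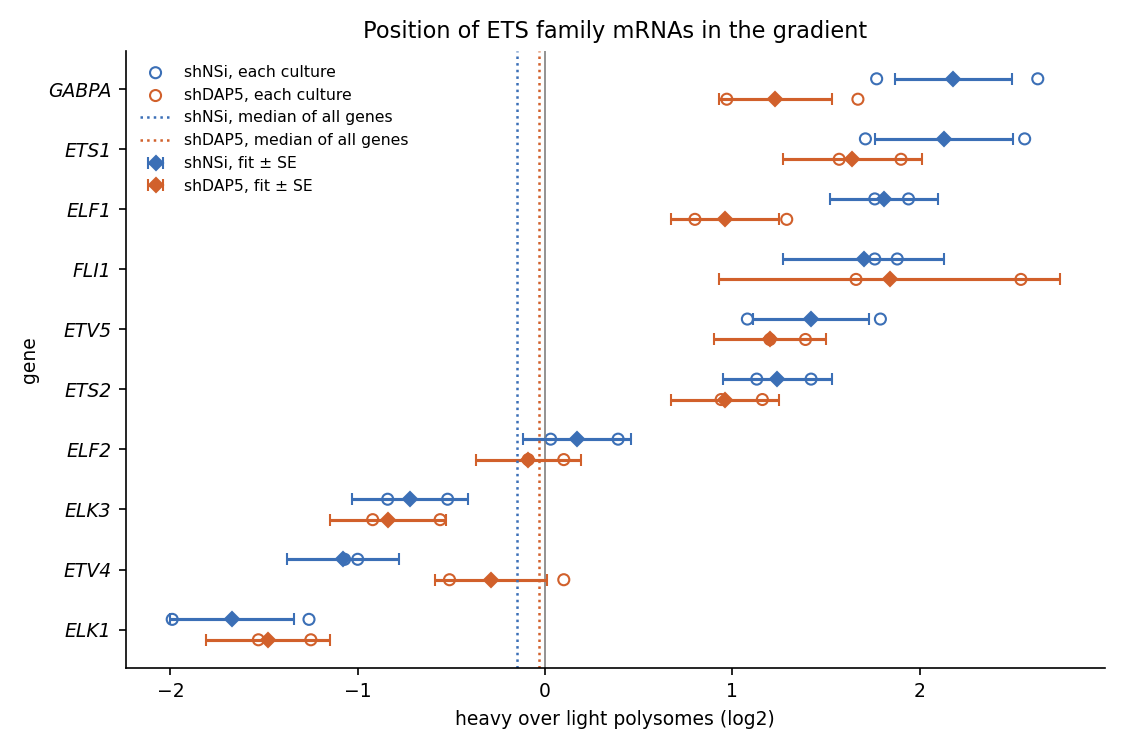
Heavy over light polysomes (log2) of the 10 ETS genes, with diamonds and bars for the fitted value ± SE, open circles for each culture and dotted lines at the median of all genes, shNSi in blue and shDAP5 in orange. GABPA, ELF1 and ETV4 show the widest gaps between hairpins, none of which passed the test of the difference.

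Whether DAP5 silencing shifted this position was tested as the change of the heavy to light ratio between hairpins. The ratio was lower in shDAP5 by a log2 of -0.95 ± 0.42 for GABPA and -0.85 ± 0.41 for ELF1 and differed by 0.79 ± 0.43 for ETV4, with adjusted p-values of 0.11, 0.144 and 0.21. With the shNSi moderate pool in place of shNSi light, a choice made after seeing the data, GABPA turned to 0.22, ETS1 from -0.49 to 0.61, ETS2 from -0.29 to 0.18, ETV5 from -0.22 to 0.46 and ELK1 from 0.18 to -1.04 (adjusted p 0.0858), while ELF1 had -0.08 and ETV4 0.42. No member was called, against 22.2% of 16051 genes, and the direction of these 5 members depends on which pool is the base. With shNSi light as the base no member passed in edgeR or DESeq2, against 14% of 16051 genes in edgeR, and 2 members had an unadjusted p under 0.05. limma on quantile-normalized values called 1 member, FLI1, whose shDAP5 light counts are too few for a fold, against 9.17% of genes. With offsets for coding length GABPA passed at -1.16 with an adjusted p of 0.0315, within a range of 0.0315 to 0.748 over its alternatives. The members' median was -0.24 beside 0.05 for all genes and -0.15 for those of 1200 to 1900 nt.

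The comparison of heavy polysomes between hairpins gave ETS1 and ELF1 lower and ETV4 higher in shDAP5. ETS1 changed by -1.31 ± 0.37 with an adjusted p of 0.00368, ELF1 by -1.17 ± 0.33 with 0.0039, and ETV4 by 0.94 ± 0.33 with 0.0202 (edgeR, n = 2 against 2). ETS1 and FLI1 are names the study picked from these libraries, so their direction is not independent evidence. The 3 members called stand against 30.9% of 14270 genes, 1 higher against 14.2% and 2 lower against 16.7%, so the share of ETS genes was close to that of all genes. FLI1, at -4.48 ± 1.29, just missed with an adjusted p of 0.0503, GABPA had -0.70 ± 0.34 with 0.10, ETS2 -0.55 ± 0.33 with 0.188 and ELK1 0.53 ± 0.33 with 0.203. FLI1 is tested here through its shNSi counts, where it is high, so a pass is no support for a change. It passed in DESeq2 and limma, with 1.03e-05 and 0.00349, but not without shNSi culture 1, at -2.01 with 0.118, or without shDAP5 culture 2, at -4.58 with 0.199. ELF2, ELK3 and ETV5 lay between -0.08 and 0.32. The members' median was -0.31, that of all genes 0.09 and, without TMM, 0.34, and that of genes of 1200 to 1900 nt -0.13, with quartiles at -0.63 and 0.32.

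These calls did not hold throughout. Without shDAP5 culture 2 heavy polysomes gave 2 called genes in all and no ETS gene. ETS1 was at -0.80 with an adjusted p of 0.125 without shNSi culture 1, -1.30 with 0.055 without shDAP5 culture 1 and -1.39 with 0.157 without shDAP5 culture 2. ELF1 lost its call without shDAP5 culture 2 (-0.97, adjusted p 0.169), and ETV4 lost its call whichever of the 4 cultures was left out, with values from 0.73 to 1.06. Without TMM ETS1 and ELF1 were at -1.09 and -0.92 with 0.0506 and 0.0644, and without the filter ETV4 was at 0.86 with 0.0594. Against the summed shNSi heavy and moderate pools, the values of ETS1, ELF1 and ETV4 were -0.84, -0.72 and 0.45, with adjusted p-values of 0.307, 0.377 and 0.695.

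**Figure D4:**
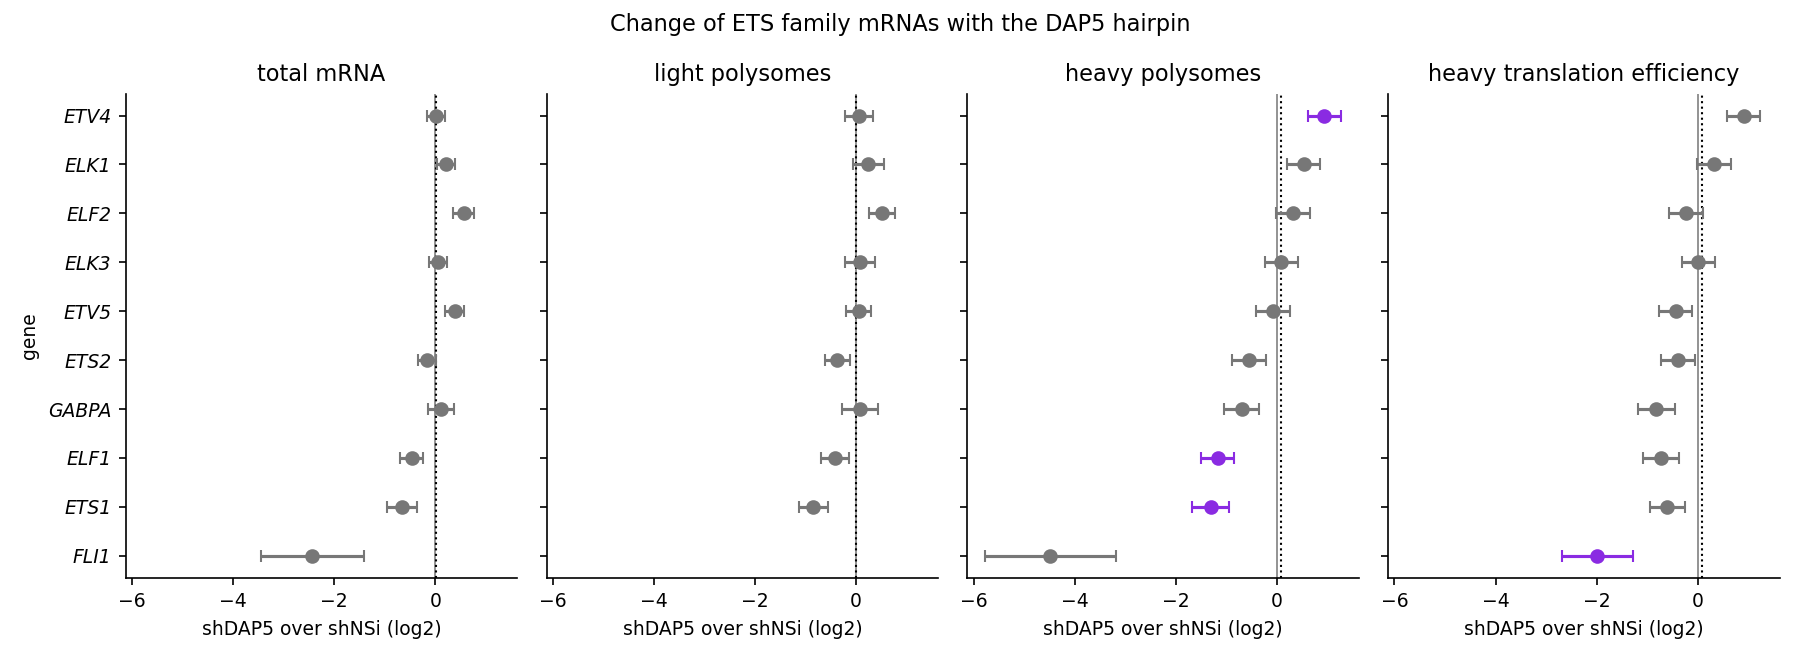
Log2 change from shNSi to shDAP5 of the 10 ETS genes in total mRNA, light polysomes, heavy polysomes and heavy translation efficiency, as fitted value ± SE, purple where the adjusted p was below 0.05, with a dotted line at the median of all genes. FLI1 has no point in light polysomes, where its counts were under the filter, and ETV4 moves in heavy polysomes beside 0.01 in total mRNA.

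Total mRNA showed no called change of an ETS gene. None of 10 members passed, against 0.354% of 14992 genes in edgeR, and DESeq2 and limma called none of them either, while 1 member had an unadjusted p under 0.05. That was ELF2 at 0.56 ± 0.21 with an adjusted p of 0.266. FLI1 had -2.43 ± 1.02 and ETS1 -0.66 ± 0.30, with adjusted p-values of 0.435 and 0.429, ELF1 -0.47 ± 0.23 and ETV5 0.38 ± 0.18. Without shNSi culture 2 the value of FLI1 was -3.27 and that of ETS1 -1.02, and without shNSi culture 1 they were -0.19 and -0.22. Over 9 other settings FLI1 passed in 3 and ETS1 in 2. Both values thus depend on shNSi culture 1, where FLI1 is high.

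Light polysomes gave no called member either. Of 9 members tested, FLI1 being filtered out at 1 and 2 shDAP5 counts, none passed, against 0% of 15529 genes, and 1330 genes had an unadjusted p under 0.05. DESeq2 called 105 genes and limma 0, no ETS gene among them. ETS1 had the lowest value at -0.85 ± 0.29 (unadjusted p 0.0169, adjusted p 0.527) and ELF2 the highest at 0.51 ± 0.26 (adjusted p 0.608). With the shNSi moderate pool, whose code the shDAP5 light libraries carry, as control ETS1 at -1.94, ELF1 at -1.2 and ELK1 at 1.46 passed, against 25.5% of 15431 genes, and so did FLI1. FLI1 is tested there, and below without shNSi culture 2, only because its shNSi counts are high. Its passes are therefore no support for a change. Without shNSi culture 1 ETS1 and ELF2 passed, against 28.9% of genes, and without shNSi culture 2 ETS1 and FLI1, against 4.82%.

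Translation efficiency, the polysome level over the total level of the same culture, separates a change in ribosome loading from one in mRNA amount. In heavy polysomes FLI1 was called lower at -1.99 ± 0.70 with an adjusted p of 0.0493, 1 of 10 members against 13.1% of 15374 genes. FLI1 passed the filter mainly through its shNSi libraries, where it is high, so neither the call nor the count is support for a change of the members. That call rests on 5 counts in each shDAP5 heavy library and was lost without the filter (0.0595), in limma (0.0652), without TMM (0.0983) and with any of the 4 cultures left out (0.128 to 0.584). ETV4 came next at 0.91 ± 0.33 (adjusted p 0.0598), then GABPA at -0.82 ± 0.36 (0.116), ELF1 at -0.73 ± 0.35 (0.147) and ETS1 at -0.60 ± 0.35 (0.251). Without shDAP5 culture 1, GABPA at -1.31, ELF1 at -1.09 and ETV4 at 1.09 passed, against 28.5% of genes, with adjusted p-values of 0.00244, 0.012 and 0.0137, and with the summed shNSi heavy and moderate pools as control each had an adjusted p of 1. The members' median was -0.41 beside 0.09 for all genes and -0.13 for those of 1200 to 1900 nt.

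In light polysomes translation efficiency gave no call for any of the 10 members, against 0% of 15967 genes, and DESeq2 and limma called none. With the shNSi moderate pool as control ETS1, ETV5 and GABPA passed as lower and ELK1 as higher, against 27.5% of 15859 genes. FLI1 passed as lower too, but its high counts are those of shNSi culture 1, so its pass is no support for a change. With shNSi light as control, at an unadjusted p under 0.05 there were 833 genes, 1 of them a member. Apart from FLI1, whose light counts in shDAP5 were too few for a fold, the members lay between -0.30 for ETV5 and 0.07 for ELK1 and ELK3.

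Over the 14 libraries the members formed opposed groups. Pearson's r of log2 (CPM + 1) was 0.96 between ETS1 and ELF1, 0.94 between ETS2 and GABPA and 0.81 between ELK1 and ELK3, and -0.92 between ETS2 and ELK1. ETV4 and ETV5 had -0.68. ELF2 went with none, its r lying between -0.24 and 0.26. These are descriptions over libraries that share 4 cultures and span the gradient. The genes most like ETS1 among 9386 were ARNT2 and AP3M2 at an r of 0.983, AOX1 at 0.982, RFTN1 at 0.972 and TACC1 at 0.97.

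Of the 18 other ETS genes, 11 passed the filter in each fraction: ETV1, ETV2, ETV3, ETV6, ETV7, ERF, ELK4, ELF3, ELF4, EHF and SPDEF. In heavy polysomes they ranged from -0.55 to 3.53, with a median of 0.43 beside 0.09. ELF3 and SPDEF, factors of epithelial differentiation, were called higher in shDAP5 heavy polysomes, 2 of 11 against the 14.2% of all genes called higher. ELF3 had 8 and 10 counts in shNSi heavy polysomes and 139 and 44 in shDAP5. SPDEF had 3 and 5 counts in shNSi heavy polysomes and 79 and 30 in shDAP5. They passed the filter there mainly through shDAP5, where they are high, so the count of 2 says nothing of the list. Both were low throughout and did not overlap between hairpins in heavy polysomes, with log2 changes of 3.12 ± 0.55 (adjusted p 3.46e-06) and 3.53 ± 0.64 (adjusted p 6.22e-06), which without shDAP5 culture 2 had adjusted p-values of 0.0624 and 0.0777. In total mRNA ELF3 had 12 and 15 counts in shNSi and 138 and 34 in shDAP5, and its change of 2.70 ± 0.68 had an adjusted p of 0.139. SPDEF overlapped there, at 0.172 and 0.585 CPM in shNSi and 2.452 and 0.5757 in shDAP5, and had 2.03 ± 0.77 with 0.323. Without shDAP5 culture 2 SPDEF passed in total mRNA at 2.71 with 0.00854, as did ELF3 at 3.39 with 2.09e-05, and without shDAP5 culture 1 the values were 0.63 and 1.28, each with an adjusted p of 1. In the control gradient ETV1, the remaining PEA3 group gene, was on the heavy side at 1.37 ± 0.29 like ETV5, ETV3 and EHF were there too at 0.90 ± 0.29 and 0.88 ± 0.39, and ETV2 was on the light side at -2.59 ± 0.49.

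Of 14 ETS regulators and partners 2 were called higher and 2 lower in heavy polysomes, against 14.2% and 16.7% of all genes, a share near that background, with a median of 0.03 beside 0.09. MAP2K2, a kinase upstream of ETS phosphorylation, had 1.33 ± 0.36 and MAPK3, the kinase ERK1, 1.04 ± 0.33, with adjusted p-values of 0.0027 and 0.0108. The acetyltransferases EP300 and CREBBP, coactivators of ETS1, had -0.93 ± 0.33 and -0.82 ± 0.33, with 0.0226 and 0.046. In the heavy to light ratio, which uses the same heavy libraries, 2 of the 14 were called higher and 1 lower. Of all 16051 genes 4.61% were called higher there and 9.41% lower. The 2 higher were MAPK3 at 1.15 ± 0.41 and MAP2K2 at 1.5 ± 0.53, and the lower was EP300 at -1.27 ± 0.41. Each of these was lost without shDAP5 culture 2 (0.579, 0.559 and 0.72), without shNSi culture 2 (0.188, 0.189 and 0.292) and with coding length offsets (0.222, 0.0906 and 0.65), and MAP2K2 also without shDAP5 culture 1 (0.0537). In all, MAPK3 passed in 6 and MAP2K2 and EP300 in 5 of 11 other settings of the ratio. With coding length offsets EP300 and CREBBP were at -0.14 and 0.01 in heavy polysomes and MAPK3 at 0.71 with 0.0975. Against the summed shNSi heavy and moderate pools MAP2K2 and MAPK3 were at 0.61 and 0.40 with 0.573 and 0.752, and without shDAP5 culture 2 none of the 4 heavy polysome calls remained, with adjusted p-values from 0.149 to 0.409. Without shNSi culture 2 MAPK3, EP300 and CREBBP had 0.107, 0.137 and 0.206, and without shNSi culture 1 MAPK3 had 0.0558. Over 11 other settings of the heavy polysome comparison MAP2K2 passed in 9, MAPK3 in 6 and EP300 and CREBBP in 5.

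ETS target genes, 15 of 16 tested in heavy polysomes, gave 6 lower and 1 higher, against 16.7% and 14.2% of all genes, with a median of -0.04 beside 0.09. Of the 6 lower, MMP1, MMP3, SERPINE2, LAMC1 and ITGAV are names the study picked from these libraries, so their direction is not independent evidence. The other, PLAU, the urokinase gene and a classic ETS1 target, had -1.07 ± 0.37 with an adjusted p of 0.0188, and -0.44 with 0.484 without shNSi culture 2, -0.85 with 0.222 without shDAP5 culture 1 and -1.47 with 0.146 without shDAP5 culture 2. It passed in 4 of 11 other settings. COX5B, a respiratory chain target of GABPA, was higher at 1.72 ± 0.34 with an adjusted p of 2.59e-05, and at 0.58 with 0.207 under coding length offsets and 1.37 with 0.0992 without shDAP5 culture 2. COX5B passed in 8 of 11 other settings of the heavy polysome comparison, with adjusted p-values up to 0.539. In heavy translation efficiency COX5B at 1.56 ± 0.35 and COX4I1 at 1.02 ± 0.35 were higher. There 3 targets, each picked by the study, were lower, so that 5 of 16 were called against 13.1% of all genes. In total mRNA 1 of 15 targets tested, again a pick of the study, was called lower, against 0.267% of all genes. In heavy translation efficiency COX5B had an adjusted p of 0.112 without shDAP5 culture 2, 0.584 without shNSi culture 2 and 0.336 with coding length offsets. COX4I1 passed with a culture left out only without shDAP5 culture 1 and had 0.384, 0.208 and 0.599 without shDAP5 culture 2, shNSi culture 1 and shNSi culture 2, and 0.11 on the log2 scale with coding length offsets.

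The same 4 total, heavy or light libraries enter several of these comparisons, which therefore share their samples. With 2 cultures per hairpin an exact permutation test cannot give a two-sided p below 0.333. The p-values of single fractions set a change against the spread between these cultures. Translation efficiency and the gradient were fitted with a term for each culture. Their p-values set a change against the spread left after that term.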

How the data were processed

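The authors deposited whole-number read counts per gene symbol for 14 libraries, without normalization. The submitters' processing notes list STAR 2.6.0a, limma and hg19 without stating their roles. The label of the deposited counts names featureCounts and has the tag rev, which may mean counting on the reverse strand, and nothing else in the sources used here says how strand or overlapping genes were treated. Of 58434 symbols, 37621 matched a gene name of GENCODE v29 (GRCh38), which gave positions, coding lengths and sequences, and 27 symbols had become dates. Replicate libraries had an r of 0.97 to 0.993 over 16235 genes. ELF1, ELF2, ETV4 and GABPA overlap genes on the other strand and ETV5 overlaps DGKG on its own strand, so reads there may be shared.

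The total libraries of shDAP5 have titles with the word polysome but the code of total mRNA, and were taken as total mRNA. Counts were analysed in R 4.3.3 with edgeR 4.0.16 (filterByExpr, TMM, robust quasi-likelihood test, Benjamini-Hochberg adjustment over all genes tested, threshold 0.05). Each fraction was fitted on 4 libraries, translation efficiency on 8 with a term for each culture, and the gradient on 10 polysome libraries with a term for each culture. SE is the log2 change over the root of the test's F. Alternatives used DESeq2 1.42.0, limma 3.58.1 on quantile-normalized log2 (CPM + 1), no TMM, no filter, a replicate block, each culture left out, other shNSi pools as control and lowess offsets for coding length. The tests were tested on simulated data. Levels are CPM with TMM, per kilobase of exon union where genes are compared.

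The members and lists were chosen with earlier results of these data known. Counts of settings given for single genes leave out the crossed replicate block. The lists hold the 10 members, 18 other ETS genes, 14 regulators and partners, 16 targets, EIF4G2 and cell type markers, and of the genes outside the members mainly those called are named, with the 5 genes most correlated with ETS1 at a mean of at least 10 CPM.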

Additional observations from a re-analysis of the deposited data

Results flagged for a closer look

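FLI1 drew attention because its change with the DAP5 hairpin differed between heavy polysomes and total mRNA by the interaction test. Its heavy translation efficiency had a log2 change of -1.99 ± 0.70 (SE), with an adjusted p of 0.0493 in edgeR and n = 2 cultures per hairpin. The heavy libraries held 185 and 17 FLI1 counts in shNSi and 5 and 5 in shDAP5, beside 101 and 11 and 12 and 8 in total mRNA. The high counts came from shNSi culture 1, and FLI1 passed the filter mainly through shNSi, so the call is no support for a change. It was lost in the 10 other settings counted, which leave out the crossed replicate block. Without shNSi culture 1 the value was -1.80 with an adjusted p of 0.434, and without shDAP5 culture 1 it was -1.54 with 0.21.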

How the results depend on the processing

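In shNSi heavy against light polysomes the ETS genes called ranged from 7 to 9 with a culture left out, against 46.9% to 61% of all genes, beside 9 against 64.4%. DESeq2, limma and library size without TMM each gave 9, against 60.1%, 58.7% and 67.5%, and the replicate block 8, against 50.5%. With coding length offsets, chosen after seeing the data for the gradient comparisons, 6802 genes passed there beside 10344. ELF2, not called, turned in shNSi to -0.27 without TMM, -0.08 in limma, -0.24 with length offsets and -0.02 without shNSi culture 1, with 0.50 without shNSi culture 2, and in shDAP5 to 0.01 without shDAP5 culture 2, with -0.17 without culture 1. ETV4 turned in shDAP5 to 0.03 without shDAP5 culture 1, with -0.59 without culture 2, and CREBBP in heavy polysomes to 0.01 with length offsets. Apart from a left-out culture having fewer samples, the cause was not tested for any change given here. In the ranges that follow, the ends for all genes and for ETS genes can come from different cultures left out. They are therefore not pairs, and a count of ETS genes cannot be set against the gene count beside it.

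With a culture left out, where the lone library of a hairpin is assumed to vary like the other groups, the genes called ranged in total mRNA from 0 to 386 (ETS genes 0 to 2), in heavy polysomes from 2 to 3559 (0 to 3), in light polysomes from 2 to 4678 (0 to 2), in heavy translation efficiency from 4 to 4515 (0 to 3), in light translation efficiency from 0 to 2030, in the shDAP5 gradient from 3254 to 7717 (2 to 7) and in the heavy to light ratio from 2 to 2915.

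DESeq2 called 273 genes in total mRNA, beside 53, and 105 in light polysomes, beside 0. Library size without TMM called 18 genes of total mRNA and, for heavy translation efficiency, 0. limma called 8 in total mRNA, 916 in heavy translation efficiency, beside 2012, and 1472 in the heavy to light ratio, beside 2251, where 1 ETS gene passed. Without the filter 577 genes (2.19%) and 2 ETS genes, ETS1 and FLI1, passed in total mRNA. In light polysomes 244 genes (0.899%) passed and 1 ETS gene, FLI1, whose 1 and 2 shDAP5 counts are too few for a fold. In light translation efficiency 3 genes passed without the filter. The ETS count of heavy translation efficiency, 1, was 0 under each of these settings, DESeq2 giving FLI1 no adjusted p.

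Coding length offsets, fitted on fewer genes, gave 2013 calls (16.6%) in heavy polysomes, beside 4414, with 4 ETS genes, ETS1, FLI1, ELF1 and ETV4. They gave 4 calls in light polysomes, 249 in heavy translation efficiency with 0 ETS genes, and 1058 in the heavy to light ratio with 1 ETS gene. In the shDAP5 gradient they gave 5293 calls (41.8%) with 8 ETS genes, ETV4 among them. The summed heavy and moderate shNSi pools as control gave 421 calls (2.77%) in heavy polysomes. Among them was 1 ETS gene, FLI1, tested mainly through shNSi and high in its culture 1. These summed pools gave 0 genes and 0 ETS genes in heavy translation efficiency. The shNSi moderate pool as control gave 3940 calls in light polysomes with 4 ETS genes and 4367 in light translation efficiency with 5. In place of shNSi light in the heavy to light ratio, a choice made after seeing the data, it gave 3562 calls beside 2251, with 0 ETS genes, and GABPA, ETS1, ETS2, ETV5 and ELK1 turned to 0.22, 0.61, 0.18, 0.46 and -1.04.

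Without TMM the median of all genes moved in heavy polysomes from 0.09 to 0.34 and the share of calls that were higher from 45.9% to 68.7%. That share moved in the heavy to light ratio from 32.9% to 61.5%, in the shNSi gradient from 49.1% to 34.8% and in the shDAP5 gradient from 50% to 36.6%. In limma it moved from 24.5% to 0% for total mRNA and from 37.1% to 50.5% for heavy translation efficiency.

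The replicate numbers do not pair the cultures, since there are 2 of each and no label ties them. Same-numbered libraries had deviations with an r of -0.13 in total mRNA, 0.06 in light and heavy polysomes and -0.32 in heavy over total. With the replicate block 365 genes (2.43%) and 1 ETS gene, FLI1, passed in total mRNA, and 130 genes in light polysomes. The block gave 688 genes and 0 ETS genes in heavy translation efficiency, 1 gene in light translation efficiency and 802 in the heavy to light ratio. In the shDAP5 gradient it gave 4271 genes (26.6%), beside 7075, and 5 ETS genes, beside 7. ETS2 and ELK3 were lost there, and ELF2 turned to 0.04. With the numbers crossed in the block, chosen after seeing the data, 99 genes passed in light polysomes, 4133 genes and 3 ETS genes in heavy translation efficiency and 4 genes in light translation efficiency.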

Other observations

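ETS1 and FLI1, neighbors on chromosome 11, were both higher in shNSi culture 1 than in shNSi culture 2 in total mRNA, with 12814 and 6820 counts for ETS1 and 101 and 11 for FLI1. Of the other ETS genes, ERG, FEV, ETV3L, ELF5 and SPIC had no count in any of the 14 libraries, and SPI1 had at most 2 in a library.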
